A study of Arabidopsis thaliana with 6 samples.

Results

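Glucosinolate breakdown was followed through 10 Arabidopsis thaliana genes for β-glucosidases, specifier proteins and partners of the endoplasmic reticulum (ER) body, out of 38150 genes with a value. They were chosen by name, as genes of this process, and are ESM1 (gene-AT3G14210), ESP (gene-AT1G54040), NSP1 (gene-AT3G16400), NSP5 (gene-AT5G48180), TGG1 (gene-AT5G26000), TGG2 (gene-AT5G25980), PEN2 (gene-AT2G44490), PYK10 (gene-AT3G09260), PBP1 (gene-AT3G16420) and MVP1 (gene-AT1G54030). The choice was made with the difference in level between nid1 and wild type already known, that of ESM1 included, so this difference is given for the 10 genes as a description and supports nothing by itself. Whole seedlings, 9 days old, of the Col-0 wild type (WT) and of the nid1 knockout mutant were compared, with 3 RNA sequencing libraries each. All seedlings of both genotypes had grown with 20 mM nitrate, were moved to medium lacking it and then received 0.05 mM nitrate for 6 h. The labels give neither the locus nor the allele behind nid1, nor how many lines were used, so the targeted transcript was not checked. The labels do not say whether the replicates of a genotype were grown separately; a p-value here measures only the spread between these libraries, which may be technical.

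Glucosinolates are sulfur-rich glucosides of the cabbage order that are stored away from the β-glucosidases, or myrosinases, that cleave them. When tissue is damaged the sugar is removed, and the unstable remainder rearranges by default to a toxic isothiocyanate. Specifier proteins divert it to nitriles or epithionitriles, while ESM1 acts against nitrile formation. In roots and young seedlings a second store of β-glucosidase sits in ER bodies, long compartments filled with PYK10.

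The genes fell into very different places in the genome, and repeats there bear on how well they can be counted. Positions are from the RefSeq annotation of TAIR10.1, which holds 37932 of the deposited identifiers by name, while the other 218 name positions that all equal annotated features. ESM1 lies on the plus strand of chromosome 3 at 4729399 to 4731847. Its first 473 exonic bases, all before the coding sequence, recur 3 times in the preceding sequence on the same strand, with copies starting 803, 1634 and 2443 bases before the start of the gene. The first and last of these copies are exact, and the copy that starts 1634 bases before the gene is broken by a single base into exact stretches of 158 and 314 bases. No annotated gene covers the copies, and 25.7% of the 101-base windows within ESM1 exons, the length of the reads, therefore occur elsewhere in the genome. NSP1 shares 19.7% of such windows with NSP4, and the other 8 genes share none. The treatment of reads from shared stretches was not given in the sources used here, so ESM1 and NSP1 carry that uncertainty.

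TGG1 and TGG2, the classical myrosinases, face each other on chromosome 5 with AT5G25990 (listed at 0 in every library) between them, TGG2 at 9072708 to 9075777 on the plus strand and TGG1 at 9079452 to 9082384 on the minus strand. Their coding sequences are identical at 82.7% of 1604 aligned bases and they have no 101-base window in common with any other place. The 250 bases before each start are shown because the TGG1 and TGG2 windows keep several stretches in common, although TGG1 was far more abundant. Capitals in the TGG1 and TGG2 windows mark the 5 stretches of at least 8 identical bases that occur in the same order in both, 65 bases in all, the longest of 21. The ESM1 window is shown as the sequence before the gene that alone among the 10 passed the test between the genotypes, and its capitals mark a CATGTG, the reverse complement of CACATG.
ESM1 (TAIR10.1, chr3:4729149-4729398, plus strand): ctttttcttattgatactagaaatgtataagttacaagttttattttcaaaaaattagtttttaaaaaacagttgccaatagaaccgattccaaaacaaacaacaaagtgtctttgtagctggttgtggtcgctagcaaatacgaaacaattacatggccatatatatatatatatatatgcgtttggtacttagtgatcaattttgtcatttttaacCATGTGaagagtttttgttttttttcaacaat
TGG1 (TAIR10.1, chr5:9082385-9082634, minus strand): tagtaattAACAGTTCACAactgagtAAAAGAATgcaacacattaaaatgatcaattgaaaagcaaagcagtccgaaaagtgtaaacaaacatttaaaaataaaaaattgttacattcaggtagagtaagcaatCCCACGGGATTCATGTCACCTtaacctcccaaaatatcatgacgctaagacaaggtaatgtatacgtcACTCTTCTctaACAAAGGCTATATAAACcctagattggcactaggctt
TGG2 (TAIR10.1, chr5:9072458-9072707, plus strand): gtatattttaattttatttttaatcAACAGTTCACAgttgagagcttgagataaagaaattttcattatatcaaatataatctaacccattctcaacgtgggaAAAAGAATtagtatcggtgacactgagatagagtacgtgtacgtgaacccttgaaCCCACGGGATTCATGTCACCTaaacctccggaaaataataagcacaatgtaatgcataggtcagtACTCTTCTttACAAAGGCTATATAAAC
The G-box CACGTG, which reads the same on both strands and is bound by bHLH factors such as the MYC proteins, was in none of the 10 windows of 250 bases and in 6.49% of the 27443 windows before protein-coding genes. Its variant CACATG, searched on both strands and not overlapping the G-box letters, was in 2 of the 10, before ESM1 (32 bases before the start) and NSP5 (147 bases before the start), and in 11.1% of all windows. A match is only a match of letters, and no match says nothing about binding.

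The remaining genes partly form 2 clusters. On chromosome 3, NSP1 (5566083 to 5568545) and PBP1 (5579290 to 5581032) lie on the plus strand within a run of nitrile-specifier and jacalin-lectin genes that spans 36.8 kb from NSP3 to JAL35. On chromosome 1, MVP1 (20167597 to 20169684, plus strand) and ESP (20170715 to 20173949, minus strand) are 1030 bases apart, beside the GDSL lipase-like genes GLL22 and GLL23. PYK10 (chromosome 3, 2840477 to 2843781, minus strand), NSP5 (chromosome 5, 19540937 to 19542760, minus strand) and PEN2 (chromosome 2, 18364652 to 18367835, plus strand) lie apart. Only PYK10 shares exonic bases with a neighbour, 138 of 1806 bases with AT3G09250 on the opposite strand, which measured 12.5 in WT and 12.7 FPKM in nid1 on average.

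**Figure D1:**
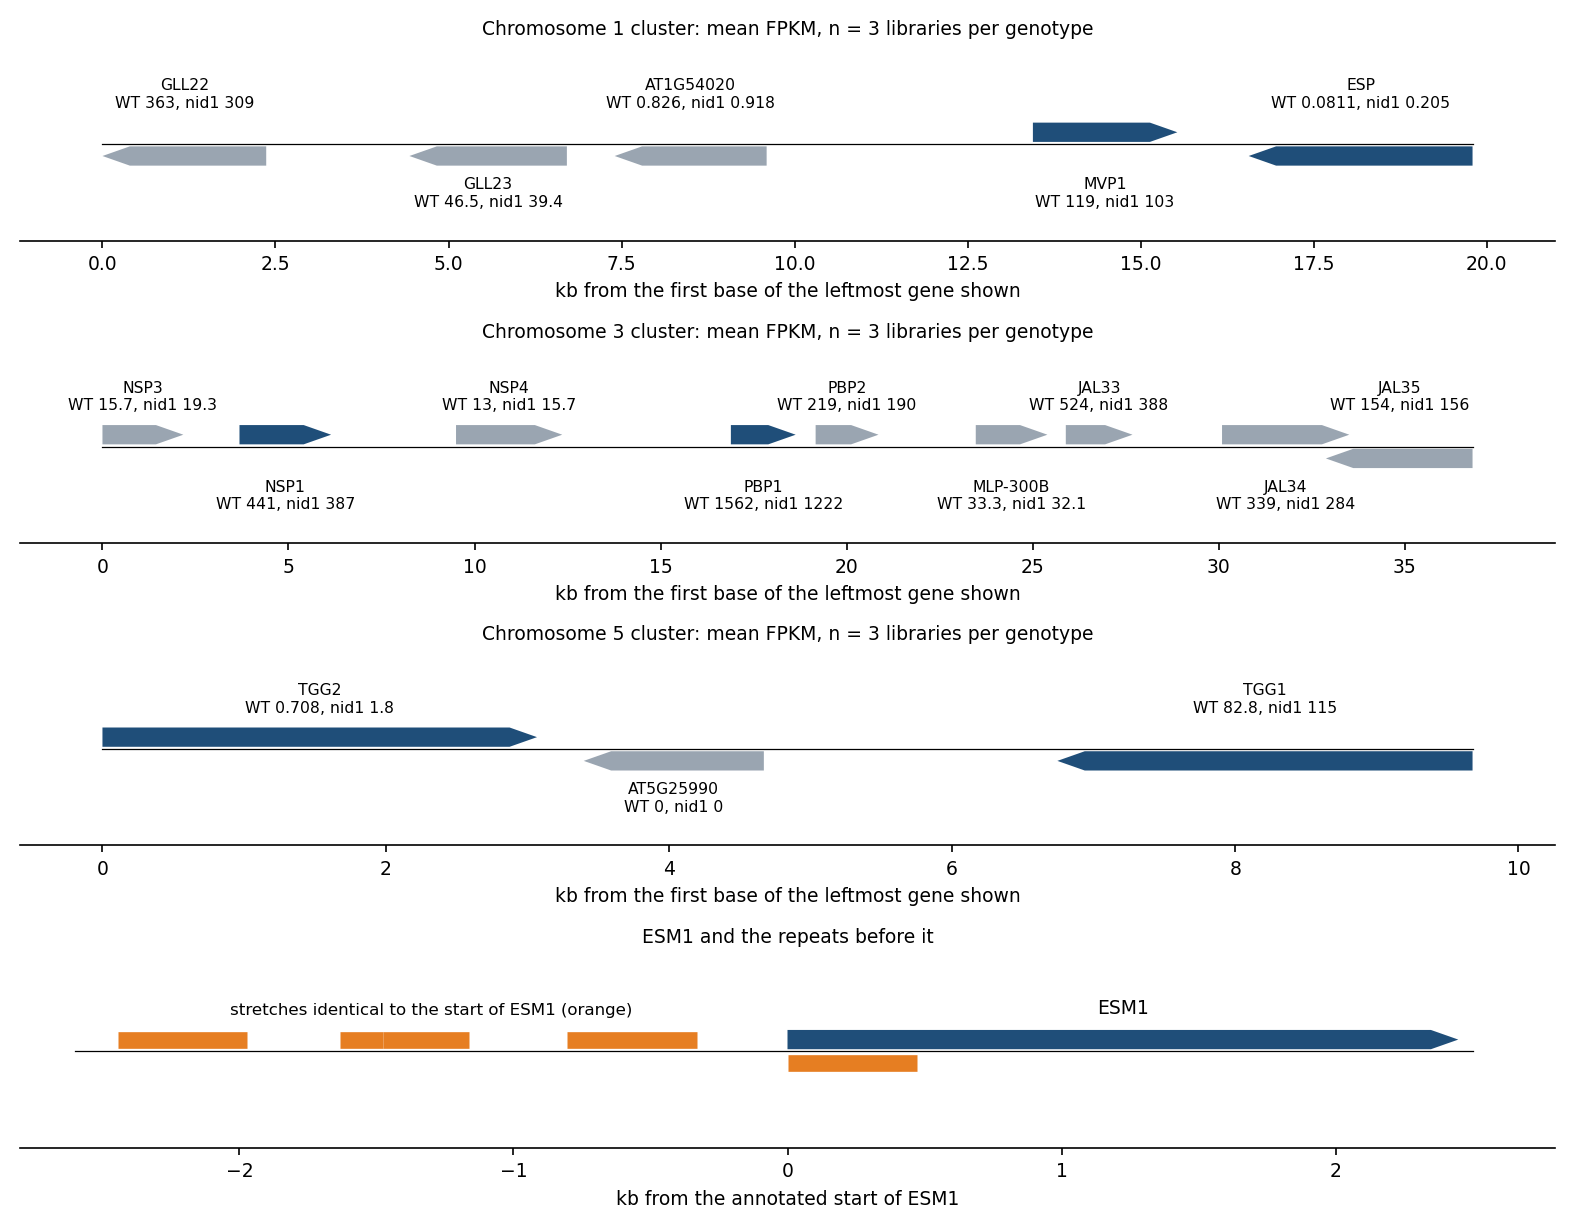
Maps of the 3 gene groups and of ESM1, with distance in kb on the horizontal axis. Arrows are genes pointing in the direction of transcription (plus strand above the line), dark blue for the 10 genes and grey for related or intervening genes, some other annotated genes being left out. Numbers are mean FPKM over 3 libraries. Orange bars in the lowest map mark the first 473 bases of ESM1 (below the line) and their copies before it. Genes side by side differ widely in level, as TGG2 (0.708 FPKM in WT) and TGG1 (82.8 FPKM) do.

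Levels are FPKM, by definition fragments scaled to transcript length and library size, and may be compared between genes because they are per length. How the deposited values were scaled between libraries is not given. Summed over all genes, they ran from 730062 (WT replicate 1) to 964273 FPKM (WT replicate 2). PYK10, the main ER body β-glucosidase, was among the most abundant transcripts of the seedlings. It stood between rank 2 and rank 6 of all genes in the 6 libraries, and alone made up 59.4 ± 1.05% of the summed FPKM of the 10 genes in WT and 56.8 ± 1.39% in nid1 (SD, n = 3 each). Its partner PBP1, a jacalin-like lectin that binds PYK10 aggregates, followed at rank 14 to 32. In WT the order of mean levels ran PYK10, PBP1, NSP1, PEN2, NSP5, MVP1, TGG1, ESM1, TGG2 and ESP. Only PEN2 and NSP5 had overlapping ranges among neighbours in that order. In nid1 TGG1 stood above MVP1, with overlapping ranges, and the order was otherwise that of WT, with no other overlap of neighbours.

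ESM1, which lowers nitrile formation from glucosinolates, was higher in nid1. It measured 17.9, 18.5 and 17.3 FPKM in WT replicates 1, 2 and 3 and 37.7, 39.7 and 40.9 FPKM in nid1 replicates 1, 2 and 3. The genotypes did not overlap, and within each genotype the values differed little, with a coefficient of variation of 3.30% in WT and 4.11% in nid1. The ratio of means was 2.21, and the log2 fold change, on the log2(FPKM + 1) scale as for all those below, was 1.099 (SE 0.105, 95% interval 0.86 to 1.34, limma adjusted p = 0.0133 over 20533 genes). The call did not survive the loss of most single libraries, although the fold change hardly moved. The limma adjusted p was 0.0693 and 0.0953 when WT replicate 1 or 3 was left out, and 0.133 and 0.129 when nid1 replicate 2 or 3 was. It was 0.014 with WT replicate 2 left out and 0.0446 with nid1 replicate 1 left out, and the log2 fold change lay between 1.07 and 1.13 in these 6 fits. In whole seedlings, more cells of a type and more RNA per cell cannot be told apart.

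ESP, the epithiospecifier protein that diverts breakdown to nitriles and epithionitriles, was close to the limit of detection. It measured 0.0527, 0.0852 and 0.106 FPKM in WT and 0.258, 0.234 and 0.124 FPKM in nid1. Every nid1 value lay above every WT value, but from a rough reading of depth these levels correspond to about 3 to 11 fragments in a library. ESP failed the filter of 1 FPKM in at least 3 libraries and was not tested.

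The nitrile-specifier genes that were expressed did not pass the test. NSP1, the most abundant of them, measured 436, 475 and 412 FPKM in WT and 311, 454 and 395 FPKM in nid1. The genotypes overlapped and nid1 replicate 1 was the lowest of the 6 libraries (log2 fold change -0.20, 95% interval -0.63 to 0.22, limma adjusted p = 1.00). NSP5, a member of the same family, measured 147, 192 and 167 FPKM in WT and 149, 123 and 124 FPKM in nid1. Here nid1 replicate 1 lay just above WT replicate 1 and the other nid1 values below all of WT (log2 fold change -0.35, 95% interval -0.70 to 0.01, limma adjusted p = 0.826). NSP1 mRNA exceeded ESM1 mRNA 24.6 ± 0.973-fold in WT and 9.78 ± 1.59-fold in nid1 (SD, n = 3 each), a ratio that moved with ESM1.

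**Figure D2:**
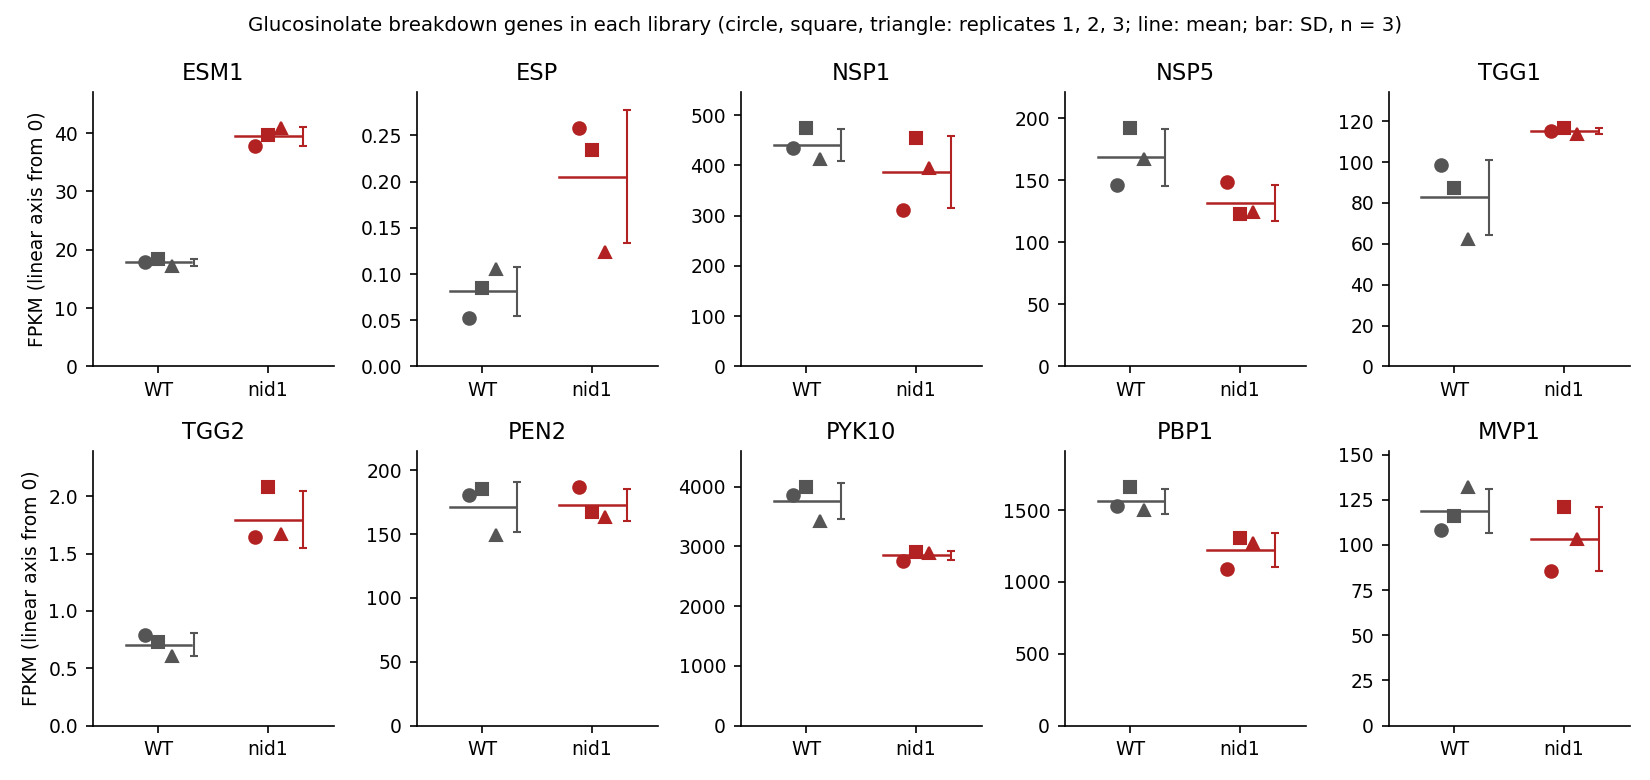
FPKM of the 10 genes in each library, every vertical axis linear from 0 and scaled to its gene. Circles, squares and triangles are replicates 1, 2 and 3, lines are means and bars are SD (n = 3). ESM1 (17.3 to 18.5 FPKM in WT, 37.7 to 40.9 FPKM in nid1) and TGG2 separate by genotype with a wide gap, while NSP1, NSP5, PEN2 and MVP1 overlap.

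The myrosinases TGG1 and TGG2 act in leaves, where TGG1 is abundant in guard cells and phloem myrosin cells. TGG1 measured 98.5, 87.4 and 62.6 FPKM in WT and 115, 117 and 114 FPKM in nid1. All nid1 values were above all WT values, and their coefficient of variation was 1.33% against 22.2% in WT, where replicate 3 was low. The log2 fold change was 0.50 (95% interval 0.09 to 0.90) and did not pass (limma adjusted p = 0.651).

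TGG2 was far lower, at 0.793, 0.727 and 0.603 FPKM in WT and 1.64, 2.08 and 1.67 FPKM in nid1. The genotypes did not overlap and the ratio of means was 2.54, but the log2 fold change of 0.71 (95% interval 0.40 to 1.02), which understates a low gene, did not pass (limma adjusted p = 0.205). TGG2 entered the test only through its nid1 values, since all WT values were under 1 FPKM, and a gene that enters in this way had to differ. The ratio of TGG1 to TGG2 was 124, 120 and 104 in WT and 70.3, 56.1 and 68.2 in nid1, without overlap. The guard cell and myrosin cell markers, with the factor FAMA that specifies both cell types, summed to 67.5 to 109 in WT and to 104 to 145 FPKM in nid1. Most of each sum was GC1, a guard cell gene, and the higher sums in nid1 came mainly from it. Limma called 0 of the 7 markers (0.0877% of all tested genes were called), with 6 above 0 and a median log2 fold change of 0.10. GC1 was the 1 with an unadjusted p under 0.05, at 57.6 ± 26.9 in WT and 96.4 ± 19.6 FPKM in nid1, at a limma adjusted p of 0.687. Its log2 fold change was 0.81, while the other markers lay between -0.17 (KAT1, next to GC1 in mean level) and 0.22 (EPF1). The genotypes overlapped in every one of these guard cell and myrosin cell markers. The part of these cells in the TGG1 and TGG2 values was not tested. FAMA itself measured 4.95 ± 0.560 in WT and 5.43 ± 1.45 FPKM in nid1 (SD, n = 3 each).

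PEN2, an atypical myrosinase that cleaves indole glucosinolates in defence against fungal entry, measured 180, 185 and 149 FPKM in WT and 187, 167 and 163 FPKM in nid1. The ranges overlapped almost fully and the log2 fold change was 0.01 (95% interval -0.32 to 0.34, limma adjusted p = 1.00). The low value was WT replicate 3, as it was for TGG1.

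PYK10 and its partner PBP1 lay lower in nid1, without passing the test. PYK10 measured 3860, 3993 and 3429 FPKM in WT and 2752, 2900 and 2891 FPKM in nid1. No nid1 value reached the lowest WT value, and the log2 fold change was -0.40 (95% interval -0.93 to 0.13, limma adjusted p = 0.975). PBP1 measured 1529, 1660 and 1498 FPKM in WT and 1088, 1308 and 1270 FPKM in nid1. It too did not overlap, with a log2 fold change of -0.36 (95% interval -0.80 to 0.08, limma adjusted p = 0.944). The ratio of PYK10 to PBP1 stayed between 2.29 and 2.52 in WT and between 2.22 and 2.53 in nid1, so the genotypes overlapped in it.

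MVP1, a GDSL lipase-like protein needed for the shape of the ER, measured 108, 116 and 132 FPKM in WT and 85.8, 121 and 103 FPKM in nid1, with overlap (log2 fold change -0.21, 95% interval -0.58 to 0.17, limma adjusted p = 1.00). ESM1 belongs to the same GDSL family, and their coding sequences match at 61.2% of 1111 aligned bases. The ratio of ESM1 to MVP1 was 0.152 ± 0.0186 in WT and 0.388 ± 0.0557 in nid1 (SD, n = 3 each).

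Of the 10 genes, 9 passed the filter on low values, TGG2 only through nid1, and limma called 1, ESM1, at an adjusted p under 0.05. Over all 20533 tested genes 0.0877% were called, 0.0633% as higher and 0.0244% as lower. Among these 9, the genotypes did not overlap in 3 that were higher in nid1 (ESM1, TGG1 and TGG2) and 2 that were lower (PYK10 and PBP1), where 10.3% of all tested genes did not overlap, 5.5% being higher and 4.79% lower. The genes were chosen with this contrast known, so nothing is read from these shares. The median log2 fold change was -0.20 over the 9 genes and 0.000218 over all tested genes.

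**Figure D3:**
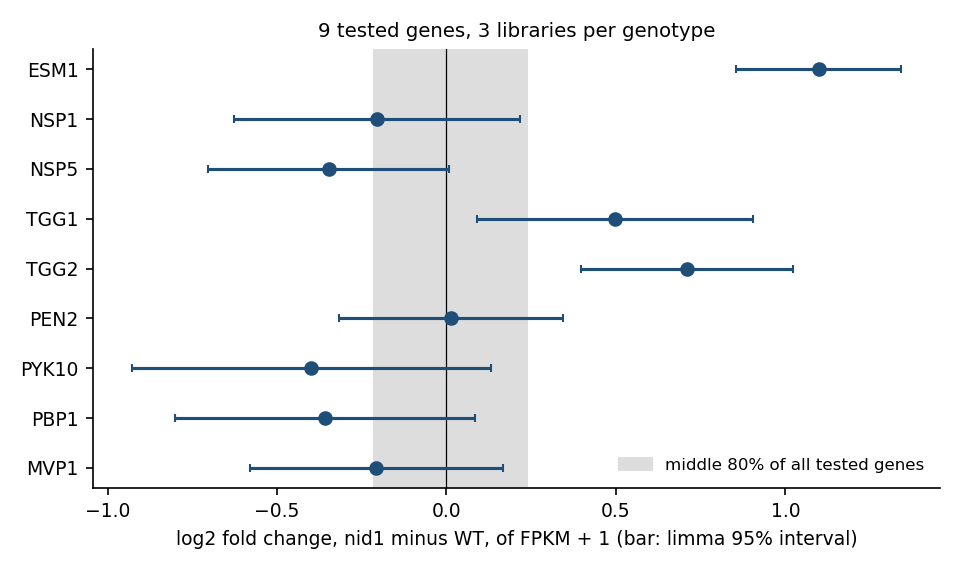
Log2 fold change of FPKM + 1 (horizontal axis, nid1 minus WT) of the 9 tested genes, with limma 95% intervals as bars, from 3 libraries per genotype. The grey band holds the middle 80% of all tested genes. The interval of ESM1 (0.86 to 1.34) lies beyond the band and that of TGG1 (0.09 to 0.90) lies above 0. That of TGG2 (0.40 to 1.02) also lies beyond the band, but TGG2 entered the test only through its nid1 values. TGG2 and TGG1 did not pass (limma adjusted p = 0.205 and 0.651). The intervals of NSP1, NSP5, PEN2, PYK10, PBP1 and MVP1 include 0.

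Across the 6 libraries some of the genes varied together and others did not. As a description, Pearson correlations of log2(FPKM + 1) were 0.98 between ESM1 and TGG2, 0.85 between TGG1 and TGG2 and 0.94 between PYK10 and PBP1, and -0.92 between ESM1 and PYK10. PEN2 stood at 0.54 with TGG1 and at -0.66 with MVP1. With ESM1, TGG2, PYK10 and PBP1 it stood at 0.07, 0.12, 0.15 and -0.11. NSP1 and NSP5 correlated at 0.19. These 6 points are 2 genotypes of 3 libraries each, so a difference between genotypes alone can give a strong correlation, and the genes share library and depth. Of 15191 other tested genes with a mean of at least 5 FPKM, 37 had a correlation of at least 0.95 with ESM1. The closest were AT3G55920 (0.997; 1.07 ± 0.266 in WT and 16.0 ± 0.979 FPKM in nid1), the long non-coding RNA AT1G07887 (0.995), MLO3 (0.988), the tubulin gene TUA2 (0.985) and NiaP (0.983). A high correlation does not give the size of a change. The log2 fold changes of these genes were, in the same order, 3.05, 5.21, 0.31, 0.10 and 0.11. All 1039 exonic bases of AT1G07887 also lie in MRD1, and 839 of them in HEI10, so its own value is uncertain. For PYK10 16 genes reached 0.95, led by the enolase gene ENO1 (0.994; 72.1 ± 1.91 in WT and 64.8 ± 0.581 FPKM in nid1), AT3G28690 (0.983), PME44 (0.982), AT5G16990 (0.967) and XTH33 (0.965). None of these 10 genes belongs to the breakdown lists.

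Further genes of the breakdown pathway were compared in the same fit. Of 45 further genes from textbook lists 32 were tested, and limma called 0 of them (0.0877% of all tested genes were called). At an unadjusted p under 0.05 there was 1, BGLU33, against 6.21% of all tested genes. The genotypes did not overlap in 1 that was higher in nid1 and 3 that were lower, where 10.3% of all tested genes did not overlap. The median log2 fold change was -0.05, with 15 genes above 0 and 17 below. BGLU33, a β-glucosidase gene of low level, measured 2.86 ± 0.539 in WT and 4.39 ± 0.302 FPKM in nid1 (SD, n = 3 each; log2 fold change 0.49, limma adjusted p = 0.458).

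Among other β-glucosidases, 10 of 18 were tested, 7 above and 3 below 0, with a median log2 fold change of 0.12. BGLU21 and BGLU22, the closest relatives of PYK10 at 84.0% and 83.7% identity of coding sequence, measured 225 ± 17.0 and 293 ± 46.5 in WT and 243 ± 20.7 and 247 ± 39.8 FPKM in nid1. Both overlapped between genotypes, with log2 fold changes of 0.11 and -0.24. The root myrosinases TGG4 and TGG5 measured 36.5 ± 9.75 and 37.2 ± 10.6 in WT and 42.7 ± 5.91 and 40.0 ± 6.74 FPKM in nid1. Their coding sequences are 97.7% identical, yet they share only 1 window of 101 exonic bases. Both stood far above TGG2 in every library. TGG3, TGG6 and BGLU20 were listed at 0 in every library. BGLU25, named after its values were seen, was the tested gene of this list whose nid1 values all lay lower (27.5 ± 1.80 and 22.8 ± 1.77 FPKM, limma adjusted p = 0.836). BGLU19, likewise named afterwards, was also lower in nid1 without overlap (0.523 ± 0.151 and 0.0732 ± 0.0650 FPKM). It failed the filter and was not tested.

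Specifier proteins, lectins and GDSL partners had 9 of 14 genes tested, 3 above and 6 below 0, with a median log2 fold change of -0.23 and 0 calls. NSP3 and NSP4, which flank NSP1, had higher means in nid1 while NSP1 had a lower one. NSP3 measured 15.7 ± 3.31 and 19.3 ± 1.67 FPKM, and NSP4, which shares sequence with NSP1, 13.04 ± 5.22 and 15.7 ± 1.08 FPKM in WT and nid1. The lectins JAL33 and JAL34 measured 524 ± 133 and 339 ± 62.6 in WT and 388 ± 41.3 and 284 ± 57.2 FPKM in nid1. PBP2, the neighbour of PBP1 with 89.0% identical coding sequence, measured 219 ± 57.2 and 190 ± 26.8 FPKM, and GLL22 363 ± 55.8 and 309 ± 45.3 FPKM. JAL33 and, named after its values were seen, JAL22 (104 ± 9.61 and 88.1 ± 3.01 FPKM) were lower in nid1 without overlap, at limma adjusted p = 0.915 and 0.928.

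Genes that build the ER body were all tested, and 1 of 5 lay above 0 with 0 calls and a median log2 fold change of -0.12. NAI1, the bHLH factor on which ER bodies depend, measured 98.4 ± 30.2 in WT and 88.2 ± 19.0 FPKM in nid1. NAI2, an ER body component, measured 136 ± 43.9 and 111 ± 26.8 FPKM, and the ER body membrane proteins MEB1 and MEB2 42.6 ± 7.88 and 10.07 ± 1.23 in WT and 39.1 ± 7.60 and 9.95 ± 2.14 FPKM in nid1. These genotypes overlapped in every case.

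Of 8 genes for later steps and transport 4 lay above and 4 below 0, with a median log2 fold change of -0.03 and 0 calls. The nitrilases NIT1 and NIT4 measured 833 ± 251 and 273 ± 42.1 in WT and 822 ± 104 and 260 ± 45.1 FPKM in nid1. Whether NIT4 takes part in glucosinolate breakdown was not tested. PEN3, an ABC transporter of the PEN2 defence pathway, measured 171 ± 49.8 and 171 ± 8.88 FPKM. The glucosinolate importer GTR2 measured 105 ± 7.24 and 97.4 ± 8.38 FPKM.

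**Figure D4:**
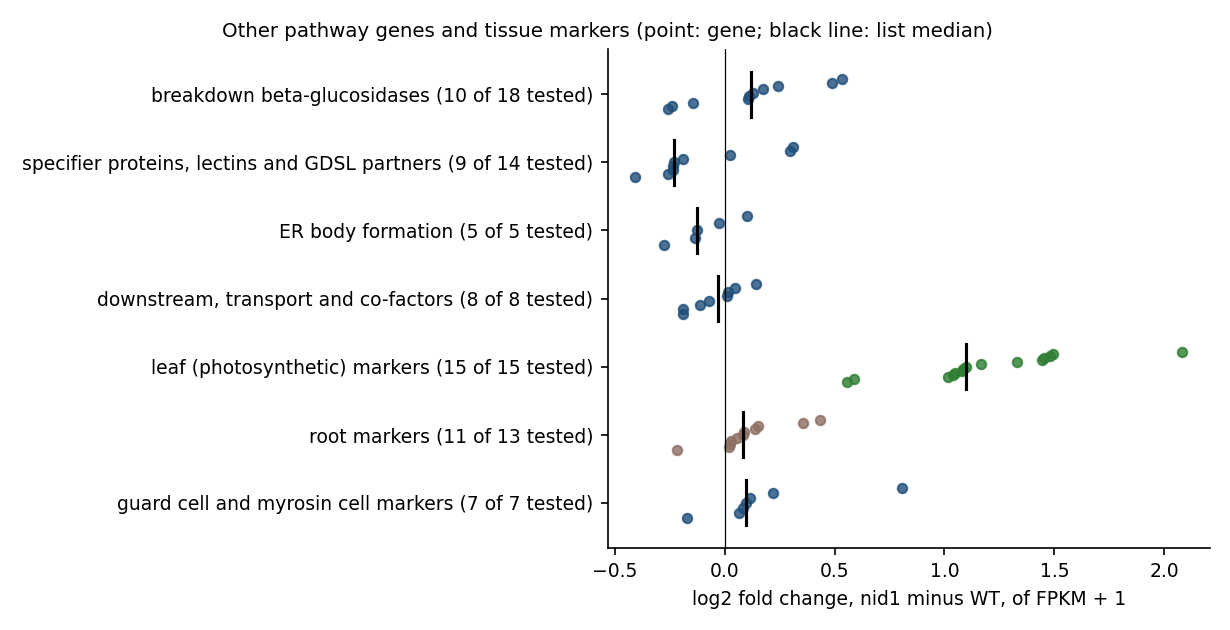
Log2 fold change of FPKM + 1 (horizontal axis, nid1 minus WT) of each tested gene in 4 lists of further breakdown genes and 3 lists of tissue markers; each point is a gene and the black line is the list median. Breakdown lists centre between -0.23 and 0.12, while all 15 leaf markers lie above 0.

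The genes beside the 10 were read from the same fit. Of 35 other genes within 2 places on either side, 20 were tested, and limma called 0 of them. At an unadjusted limma p under 0.05 there were also 0. Over all tested genes 0.0877% were called and 6.21% had an unadjusted p under 0.05, so 20 genes are too few to tell. Beside ESM1, AT3G14220 starts 980 bases after it on the same strand and measured 20.5 in WT and 23.1 FPKM in nid1 (log2 fold change 0.16, limma adjusted p = 1.00), and GLIP4, a GDSL lipase gene, 5.81 and 6.15 FPKM. BGLU17, which precedes PEN2, measured 1.90 and 2.23 FPKM.

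Transcripts of leaf and root were both present, as the label of whole plants says. The 13 root markers, with CASP1 of the endodermis at 182 ± 21.5 in WT and 185 ± 4.86 FPKM in nid1 (SD, n = 3 each), summed to 323 to 411 in WT and 391.1 to 392.1 FPKM in nid1, with 0 called. The 15 leaf markers, photosynthesis genes such as RBCS1A, summed to 543, 818 and 575 FPKM in WT and 1059, 1861 and 1571 FPKM in nid1. All 15 had log2 fold changes above 0, with a median of 1.098. Of these, 14 were higher in nid1 without overlap, against 5.5% of all tested genes. An unadjusted limma p under 0.05 was found for 14, against 6.21% of all tested genes. Limma called 0, where 0.0877% of all tested genes were called. None of the leaf or root markers was listed at 0 in every library. The leaf marker sum, ESM1, TGG1 and TGG2 were thus all higher in nid1, but within a genotype they went together only in part. In WT the leaf sum and ESM1 were highest in replicate 2, and TGG1 and TGG2 in replicate 1. In nid1 the leaf sum, TGG1 and TGG2 were highest in replicate 2, and ESM1 in replicate 3. The part of the leaf markers in the differences between genotypes was not tested. All 15 are photosynthesis genes, so more leaf tissue and more of their RNA per cell cannot be told apart. Over all tested genes 1 library, WT replicate 2, lay away from the rest along the main axis of variation (38.3% of the variance). With it left out the log2 fold change was 1.12 for ESM1, 0.72 for TGG2 and -0.35 for PYK10.

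**Figure D5:**
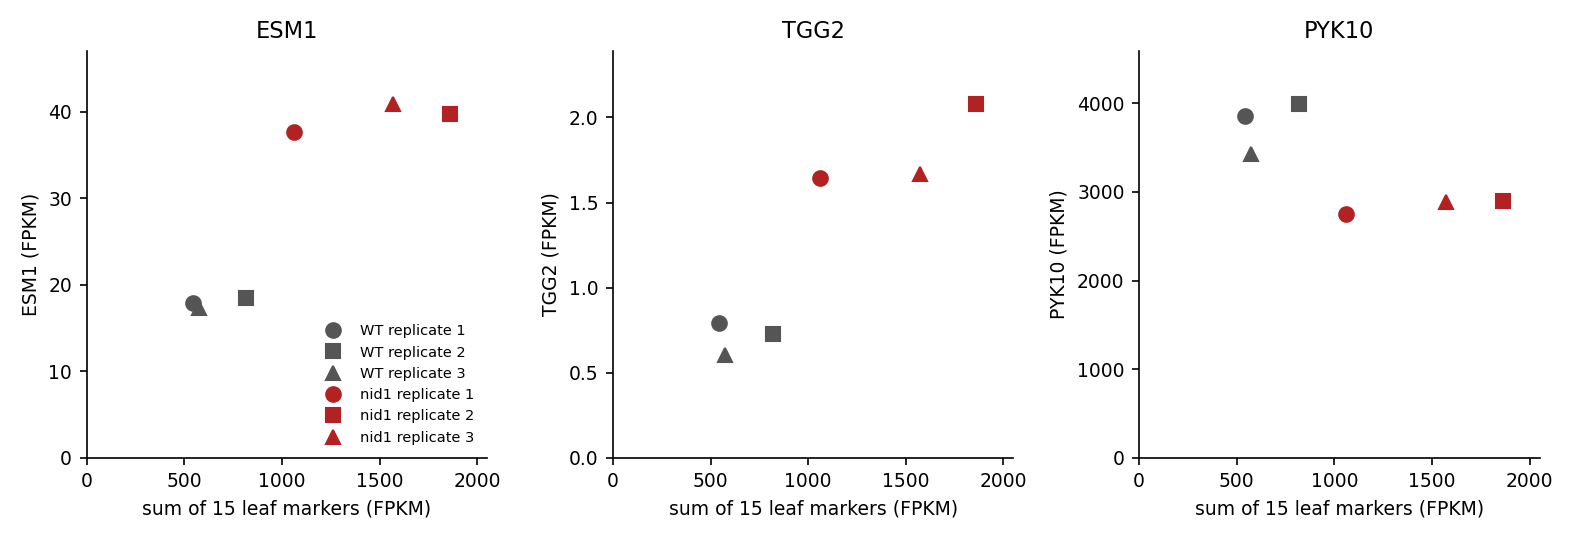
FPKM of ESM1, TGG2 and PYK10 (vertical axes, from 0) against the summed FPKM of 15 leaf markers (horizontal axis) in each of the 6 libraries, grey for WT and red for nid1. The genotypes separate on both axes, the leaf sum lying between 543 and 818 FPKM in WT and between 1059 and 1861 FPKM in nid1.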

How the data were processed

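Per the submitters' processing notes, bcl2fastq 2.20, Bowtie, TopHat2 2.0.13 and Cuffdiff 2.2.1 were used, with roles and genome build not given in the sources used here. Libraries came from a stranded poly(A) kit with paired 101 bp reads, per the labels' protocols. The authors deposited 1 FPKM value per gene and library, whose scaling between libraries is not given; the unit follows from the file headers and values. Counts were not used. Low FPKM of long genes with 1 transcript, multiplied by length less an assumed 200 bp, piled up at the worth of 1 fragment, which put depth at very roughly 24500000 to 35500000 fragments; the steps were smeared, so no counting interval is given.

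Genotypes were compared on log2(FPKM + 1) by limma 3.58.1 under R 4.3.3 (trend, genotype only, two-sided). A gene was tested if 3 or more of the 6 libraries reached 1 FPKM, which left 20533 genes. P-values were adjusted by Benjamini-Hochberg over these, and 18 genes were called at an adjusted p under 0.05. The test was checked on simulated data. Reference steps used Python 3.11.15 and Biopython 1.88 on TAIR10.1.

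The members, lists and the rule for named genes were chosen with earlier results of these data known. The rule named all 10 genes, listed genes that were called, had an unadjusted p under 0.05 or were among the 4 highest of a list, neighbours of the same family or with shared exons, and the 5 genes most like ESM1 and PYK10. Other listed genes were named after their values were seen. Alternatives were 2 other pseudocounts, 2 filters, a replicate block, rescaling by median ratios and leaving out each library.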

Additional observations from a re-analysis of the deposited data

How the results depend on the processing

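The 18 calls over all genes became 8 to 35 when single libraries were left out, and the calls among the 10 genes 0 to 1. Those fits assume that the remaining pair varies like the other group. The breakdown lists had 0 calls in every setting run. With a replicate block 70 genes were called, and ESM1 was the 1 call among the 10 genes. Same-numbered libraries correlated in their deviations at -0.01, 0.13 and 0.30 for numbers 1, 2 and 3, and WT replicate 1 correlated best with nid1 replicate 3 (0.20), so the replicate numbers were not taken as a pairing. The log2 fold change of ESM1 lay between 1.07 and 1.14 over 12 alternatives. That of TGG2 ran from 0.64 to 1.23, the highest with a pseudocount of 0.1. That of PEN2 ran from -0.0839 without WT replicate 3 to 0.0713 without WT replicate 2, and was also below 0 without nid1 replicate 1. NSP1, NSP5, TGG1, PYK10, PBP1 and MVP1 kept their direction and stayed uncalled in all 12, but the size of the change moved. It ran from -0.33 to -0.06 for NSP1, from -0.33 to -0.08 for MVP1 and from 0.31 to 0.63 for TGG1. For NSP5 it ran from -0.44 to -0.25, for PYK10 from -0.46 to -0.35 and for PBP1 from -0.41 to -0.28.

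Some list medians near 0 changed sign. With single libraries left out, they ran from -0.0253 (without WT replicate 3) to 0.189 for β-glucosidases, from -0.256 to 0.0216 (without nid1 replicate 1) for ER body formation and from -0.161 to 0.00969 (without WT replicate 2) for the later steps. Removing the filter adds the untested genes to a list and leaves the other fold changes as they were. With no filter the median of specifier proteins, lectins and GDSL partners was 0.0127. Why medians moved with single libraries left out was not tested. Rescaling moved the median of all genes from 0.000218 to -0.00657. Depth limits ESP, whose values rest on a few fragments.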
